A study of Mus musculus with 10 samples.

Results

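The SLC25 family of mitochondrial carriers was taken as every row of the gene table whose symbol is Slc25a followed by a number, which gave 46 of 18025 genes. The rule used names alone, but it was chosen with earlier results of these data known. Messenger RNA had been sequenced from mouse gastrocnemius, a mixed calf muscle, in a study whose title names myokines, signalling pathways and muscle dysfunction in chronic obstructive pulmonary disease (COPD) modelled with cigarette smoke. There were 5 COPD libraries and 5 control libraries. Mice of both groups are labelled as wild type C57BL/6 at 8 weeks of age. The labels name no transgene, sex, processing day or length of smoke exposure, nor do they say whether each library came from its own animal. The p-values below therefore measure the spread between these libraries, which may be technical.

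SLC25 proteins are membrane carriers built from tandem repeats, and most of them sit in the inner mitochondrial membrane. They exchange or carry ADP and ATP, phosphate, carboxylates, amino acids, acylcarnitines, cofactors and metals between the cytosol and the matrix, and so link glycolysis and fat oxidation to respiration. In muscle the ADP/ATP translocase Slc25a4 and the phosphate carrier Slc25a3 supply the substrates of ATP synthase, and the carriers Slc25a11 and Slc25a12 belong to the malate-aspartate shuttle.

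Of the 46 genes, 37 passed the low-count filter and were tested among 12697 genes with edgeR's quasi-likelihood test. None of the 37 passed a Benjamini-Hochberg adjusted p of 0.05, where 0.0551% of all genes tested were called higher in COPD and 0.00788% lower. Before adjustment, 8 of the 37 had a p under 0.05 with higher values in COPD (21.6%, against 7.94% of all genes tested) and 0 with lower values (against 6.64% of all genes tested). The 8 were Slc25a4, Slc25a5, Slc25a25, Slc25a33, Slc25a22, Slc25a20, Slc25a37 and Slc25a39. DESeq2, run without the filter, called 4 members higher, Slc25a4, Slc25a5, Slc25a25 and Slc25a33, which is 10.5% of the 38 members that it gave an adjusted p, against 2.04% of all genes. It called 0 members lower, against 1.18% of all genes. Voom with sample weights called 0 members in either direction, where it called 0.677% of all genes higher and 0.402% lower, and limma on log2(TPM + 1) called 0 members, where it called 0.0804% of all genes higher and 0.518% lower.

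The fold change was above 0 for 30 of the 37 genes (81.1%), against 48.0% of all genes tested. Its median was 0.19 on the log2 scale, with -0.01 over all genes tested. These directions are relative to the scaling by trimmed mean of M values (TMM). With library size alone the median of all genes moved to -0.17, that of the SLC25 genes was 0.04 and 21 were above 0. With limma on log2(TPM + 1) the medians were -0.18 over all genes and -0.02 over the SLC25 genes, and 17 were above 0. The distance between SLC25 genes and all genes was thus of like size in these fits, while the sign of small fold changes was not fixed. In the fit on TPM the log2 fold changes of genes described below with higher means in COPD were smaller as well, at 0.26 for Slc25a5, 0.69 for Slc25a33, 0.32 for Slc25a22, 0.20 for Slc25a20, 0.05 for Slc25a37, 0.17 for Slc25a39 and 0.42 for Slc25a30. In the same fit 2 members had an unadjusted p under 0.05 with higher values and 2 with lower values. The lower ones were Slc25a44 at -0.33 and Slc25a51 at -0.29. Library size alone gave 4 higher and 2 lower. The shares of all genes by this measure are not given for these fits.

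Library facts that touch the results were as follows. Totals ran from 14085854 to 17251034 expected counts. On the first principal component COPD replicates 1 to 4 lay between 11.43 and 38.03, whereas COPD replicate 5, at -21.9, lay among the controls (-23.89 to -10.04). Counts on Y-linked genes were 3 or 4 in COPD replicates 1, 4 and 5, 1118 and 1258 in COPD replicates 2 and 3, and 1441 to 1974 in the controls. No control had such low counts. A difference of sex, which the labels do not name, thus cannot be told apart from COPD in replicates 1, 4 and 5. Skeletal muscle markers dominated every library, with a summed level of 197131 to 229064 TPM (the authors' transcript levels, scaled by length and depth) in COPD and 149755 to 234629 TPM in control. Of 8 macrophage markers, 8 were below 0 in fold change, with a median of -0.61 on the log2 scale and a summed level of 42.1 to 138 TPM in COPD and 104 to 183 TPM in control. Of 8 markers of slow and oxidative fibres, 7 were below 0, with a median of -1.2 over the 8. The summed level of these 7 was 133 to 608 TPM in COPD and 240.7 to 1769 TPM in control. The other, the oxygen store myoglobin (Mb), averaged 4678 TPM in COPD and 3662 TPM in control, and with it the sum was 2791 to 7372 TPM in COPD and 2857 to 6471 TPM in control. Among the 7, control replicates 1 and 4 often stood apart. Myh7 had 319 and 180 CPM (defined below) there, 28.6 to 29.9 CPM in the other controls and 2.28 to 96.8 CPM in COPD. Tnnt1 had 121 and 73.7 CPM there, 13.7 to 16.0 CPM in the other controls and 8.01 to 33.6 CPM in COPD. For Myh2 the highest controls were replicates 1 and 5. Of 5 tested tendon markers, 4 were above 0, with a median of 1.08 and a summed level of 42.6 to 102 TPM in COPD and 31.2 to 58.1 TPM in control, and 2 had an unadjusted p under 0.05 with higher values in COPD, Thbs4 at 1.18 and Tnmd at 2.01. The part of these differences in the values below was not tested, and in whole muscle fewer cells of a type and less RNA per cell cannot be told apart.

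The levels per transcript length differed over several orders of magnitude among the carriers. Averaged over the 10 libraries, 4 genes stood at 100 TPM or more, 16 between 10 and 100 TPM, 17 between 1 and 10 TPM and 9 under 1 TPM. Slc25a4 led with 4817 ± 694 TPM in COPD and 4136 ± 378 TPM in control (SD, n = 5 each). Next came Slc25a3 with 1046 ± 165 TPM in COPD and 1057 ± 65.5 TPM in control, separated from Slc25a4 in every library. Slc25a11 stood at 246 ± 59.4 TPM in COPD and 232 ± 17.6 TPM in control. Slc25a12 stood at 220.1 ± 46.02 TPM in COPD and 235 ± 8.65 TPM in control. The ranges of these genes overlapped in each group. Within libraries, Slc25a11 lay above Slc25a12 in every COPD library and in control replicate 4, and below it in the other controls. This order was not tested.

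**Figure D1:**
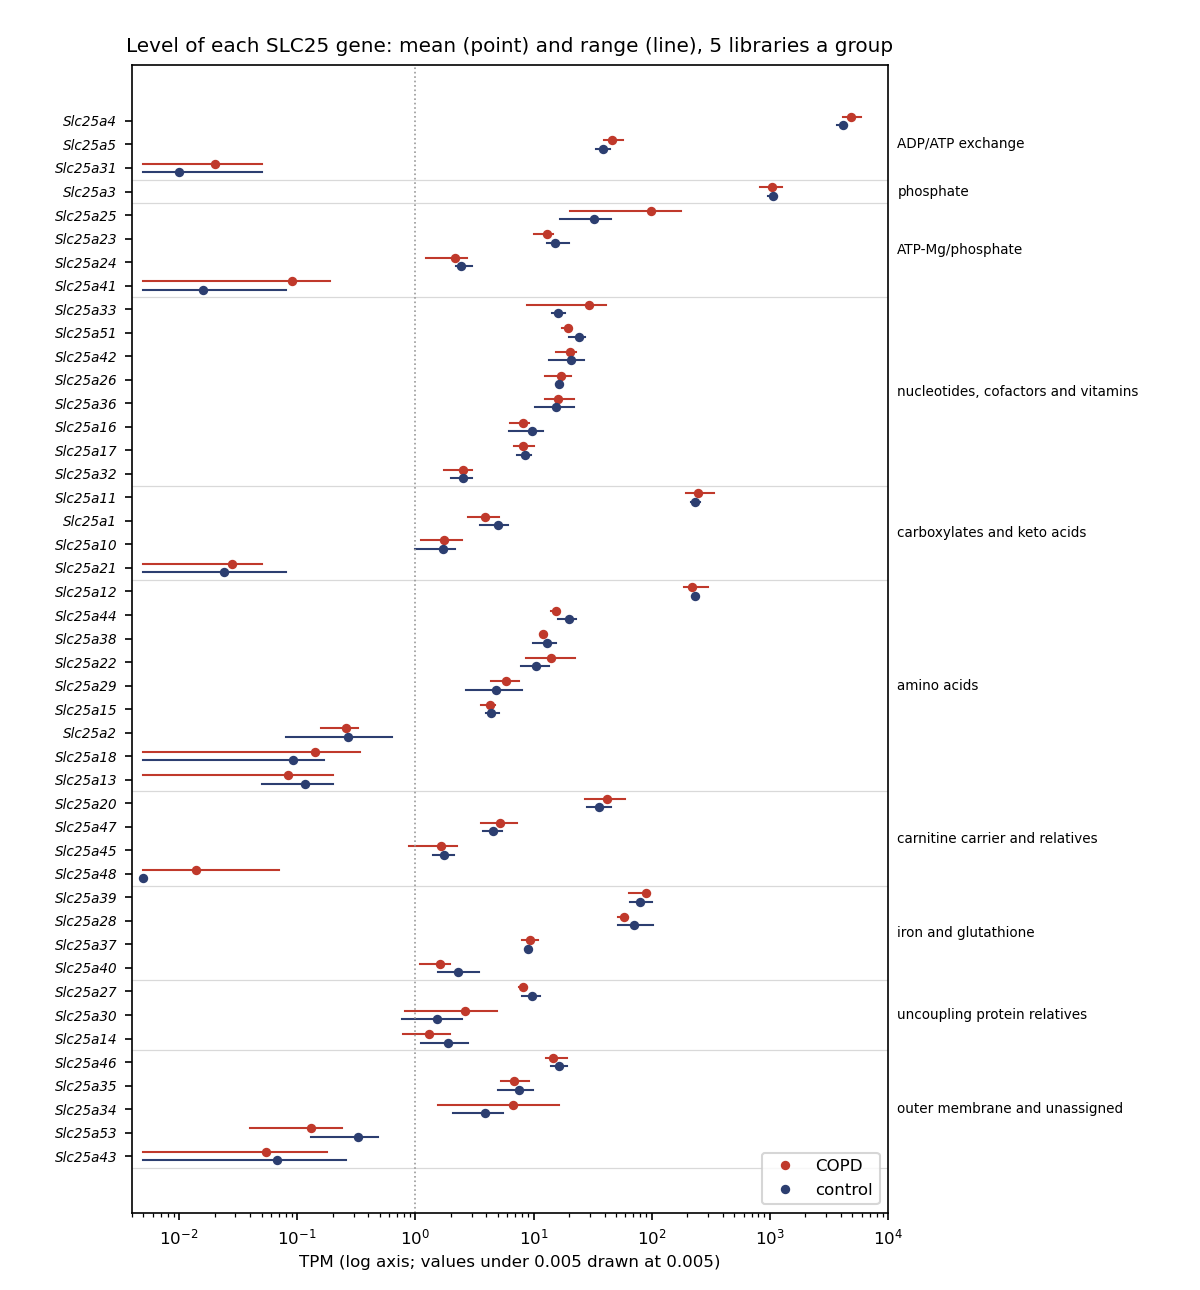
TPM of 45 of the 46 SLC25 genes on a log axis, by substrate group, with the mean as a point and the range over 5 libraries as a line (COPD red, above; control blue, below). Slc25a4 and Slc25a3 stand at the top, and 9 genes lie left of the dotted line at 1 TPM.

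Summed over the 46 genes, the level was 6946 ± 977 TPM in COPD (5816 to 8405) and 6198 ± 358 TPM in control (5748 to 6612; SD, n = 5 each). That was 0.695% of all TPM in COPD and 0.620% in control. The groups overlapped, because the sums of COPD replicates 1 and 5 lay below the highest control. Slc25a4 alone made up 69.3 ± 1.63% of the sum in COPD and 66.7 ± 2.89% in control. Slc25a3 made up 15.0 ± 0.612% in COPD and 17.1 ± 1.51% in control. The share of Slc25a12 was 2.73% to 3.56% in COPD and 3.60% to 4.07% in control, so that all 5 COPD shares lay below all 5 control shares. Of the 37 tested genes it was the 1 whose shares separated the groups in this direction, and 0 did so in the other. Its CPM, given below, overlapped between the groups. These shares within the family do not depend on the scaling between libraries and were not tested. Each share moves with the sum as well, most of which is Slc25a4. A like count over all genes was not made.

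**Figure D2:**
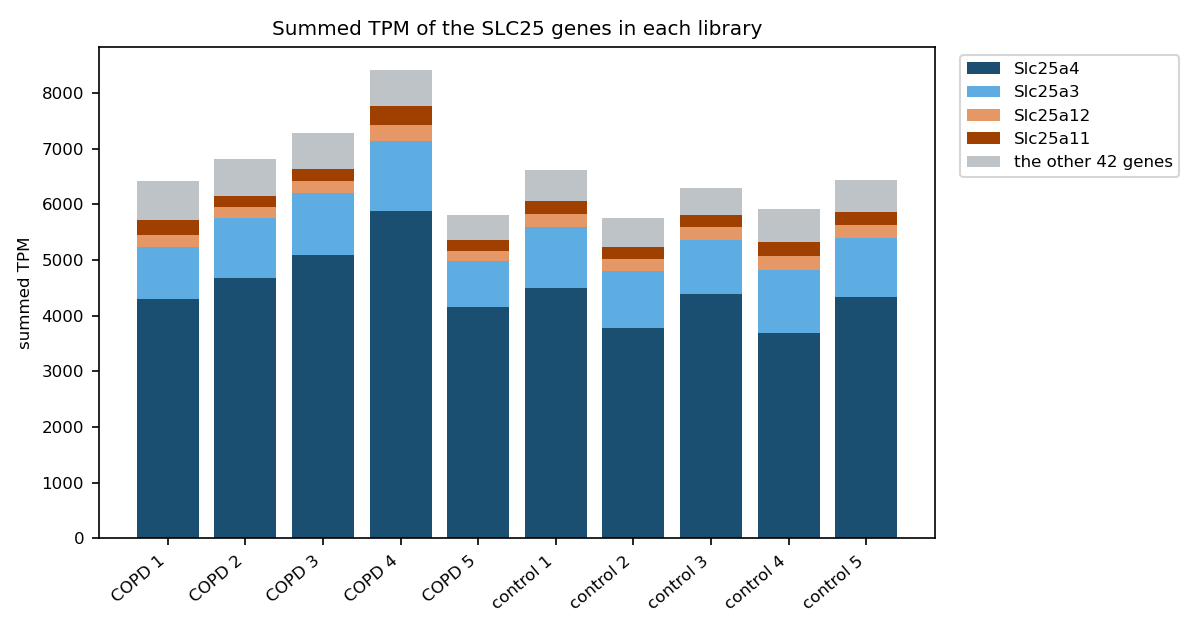
Summed TPM of the 46 SLC25 genes in each of the 10 libraries, split into Slc25a4, Slc25a3, Slc25a12, Slc25a11 and the other 42 genes. The COPD sums run from 5816 to 8405 TPM and the control sums from 5748 to 6612 TPM, and most of each bar is Slc25a4.

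The ADP/ATP translocases bring ATP out of the matrix in exchange for ADP. Both tested genes of this group, of 3 in the table, had higher means in COPD. Slc25a4, the heart and muscle isoform, had 3894, 4170, 4228, 4729 and 3309 CPM (counts scaled to library size with TMM factors) in COPD replicates 1 to 5 and 3238, 2691, 3633, 2642 and 3014 CPM in control replicates 1 to 5. COPD replicates 1 to 4 lay above every control and COPD replicate 5 lay below control replicate 3. The log2 fold change was 0.42 ± 0.13 (SE), with an adjusted p of 0.189 by edgeR and 0.0355 by DESeq2. It was 0.27 with library size alone and 0.21 with limma on log2(TPM + 1).

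Slc25a5, the widely expressed isoform, lies on chromosome X. It had 39.7, 34.0, 35.7, 44.6 and 35.3 CPM in COPD and 30.9, 24.1, 26.9, 28.8 and 25.9 CPM in control. All 5 COPD libraries lay above all 5 controls, which held in the higher direction for this 1 member and for 1.29% of all genes tested. The log2 fold change was 0.47 ± 0.11, with an adjusted p of 0.0963 by edgeR and 0.00452 by DESeq2. With COPD replicate 5 left out, a choice made here and below after the data were seen, it was 0.49 ± 0.11 (edgeR, adjusted p 0.0391). Among the 7 libraries with Y-linked counts it was 0.36 ± 0.12, with an adjusted p of 0.145. Processed copies of this gene in the mouse genome are near-identical to it, and the sources used here do not say how shared reads were counted, so its level is uncertain. The testis isoform Slc25a31 averaged 0.020 TPM in COPD and 0.010 TPM in control and was not tested.

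The ratio of the translocase isoforms did not separate the groups. The log2 ratio of Slc25a4 to Slc25a5 in TPM was 6.70 ± 0.17 in COPD and 6.75 ± 0.20 in control, a difference of -0.05 (exact permutation test, p = 0.698, adjusted over 6 paralog pairs 0.838). By length, Slc25a4 was 104 times as abundant as Slc25a5 in COPD and 107 times in control.

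The phosphate carrier Slc25a3, which brings inorganic phosphate into the matrix, had 891, 1010, 974, 1059 and 696 CPM in COPD and 825, 767, 841, 859.7 and 762 CPM in control. Again COPD replicates 1 to 4 lay above every control, and COPD replicate 5 lay below all of them. Its log2 fold change was 0.19 ± 0.12 (adjusted p 0.505 by edgeR), and -0.03 with limma on log2(TPM + 1).

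The ATP-Mg/phosphate carriers exchange ATP-Mg for phosphate under the control of cytosolic calcium and so set the adenine nucleotide pool of the matrix. Slc25a25, the carrier SCaMC-2, had the largest fold change of the 37 tested SLC25 genes. It had 389, 319.7, 186, 101 and 39.8 CPM in COPD and 79.5, 47.8, 34.0, 54.7 and 71.4 CPM in control. COPD replicates 1 to 4 lay above every control, and COPD replicate 5 lay below all but 1 of the controls. The mean was 207 ± 146 CPM in COPD and 57.5 ± 18.2 CPM in control (SD, n = 5 each), and the log2 fold change was 1.85 ± 0.49 (adjusted p 0.127 by edgeR and 0.0347 by DESeq2). Without COPD replicate 5 it was 2.11 ± 0.36 (edgeR, adjusted p 0.0129), and among the 7 libraries with Y-linked counts 2.15 ± 0.30 (edgeR, adjusted p 0.00649). In the mouse annotation GENCODE M21 this gene overlaps Naif1 on the opposite strand, and the sources used here do not say whether the counting used strand.

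The other tested carriers of this group had near equal means in CPM. In TPM, Slc25a23 averaged 13.1 in COPD and 15.1 in control, and Slc25a24 averaged 2.15 in COPD and 2.45 in control. Slc25a23 averaged 28.6 ± 4.00 CPM in COPD and 28.5 ± 4.80 CPM in control, with a log2 fold change of 0.00 ± 0.13. Slc25a24 averaged 4.68 ± 1.11 CPM in COPD and 4.68 ± 0.661 CPM in control, with a log2 fold change of 0.00 ± 0.19. The log2 ratio of Slc25a25 to Slc25a24 in TPM was 5.14 ± 1.63 in COPD and 3.61 ± 0.52 in control, a difference of 1.53 (exact permutation test, p = 0.0794, adjusted 0.310). Without COPD replicate 5, the lowest COPD library for this ratio, that difference was 2.10 (exact permutation test, adjusted p 0.0238). That library was set aside after the data were seen, so this p is not a separate test. The low-level relative Slc25a41 averaged 0.090 TPM in COPD and 0.016 TPM in control and was not tested.

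Slc25a25 and the pyrimidine nucleotide carrier Slc25a33 had the largest fold changes among the 37 genes, and the bases upstream of their starts are shown for that reason. The sequences are RefSeq promoters on build GRCm38.p6, 250 bases before an annotated start, read along the gene. Capitals mark the cAMP response element TGACGTCA in the first and the E-box CACGTG in the second, both searched on both strands.
Slc25a25, chr2:32424067-32424316, minus strand: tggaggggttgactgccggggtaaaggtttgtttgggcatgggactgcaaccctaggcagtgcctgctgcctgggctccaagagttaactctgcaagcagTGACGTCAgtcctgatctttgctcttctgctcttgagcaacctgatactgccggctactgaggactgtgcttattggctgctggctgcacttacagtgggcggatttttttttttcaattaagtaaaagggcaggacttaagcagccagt
Slc25a33, chr4:149774268-149774517, minus strand: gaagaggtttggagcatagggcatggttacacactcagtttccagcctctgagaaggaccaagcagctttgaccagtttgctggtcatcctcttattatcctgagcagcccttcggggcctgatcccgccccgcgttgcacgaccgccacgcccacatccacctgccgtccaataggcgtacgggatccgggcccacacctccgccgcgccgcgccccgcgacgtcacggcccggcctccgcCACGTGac
The element in Slc25a25 begins 150 bases before the start and lies in 1 of 3 annotated promoters of the gene. The counts are per gene and do not tell the starts apart. It occurs in 1.55% of 32851 mouse promoters of the same length, and among the SLC25 promoters also in that of Slc25a36. The E-box begins 8 bases before the start of Slc25a33 and occurs in 6.02% of all promoters. A match of letters is a description of the window and shows no binding.

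Slc25a33, which imports pyrimidine nucleotides for the synthesis of mitochondrial DNA and RNA, had 53.5, 37.7, 41.3, 38.5 and 9.92 CPM in COPD and 19.0, 14.6, 17.5, 16.4 and 16.4 CPM in control. Each of COPD replicates 1 to 4 lay above every control, and COPD replicate 5 had the lowest value of the 10 libraries. The log2 fold change was 1.11 ± 0.32 (adjusted p 0.150 by edgeR and 0.0200 by DESeq2). It was 1.35 ± 0.13 without COPD replicate 5 (edgeR, adjusted p 0.000534) and 1.25 ± 0.12 among the 7 libraries with Y-linked counts (edgeR, adjusted p 0.00168). Its paralog Slc25a36, which also carries pyrimidine nucleotides, averaged 50.6 ± 11.2 CPM in COPD and 42.1 ± 11.3 CPM in control, with a log2 fold change of 0.27 ± 0.20. The log2 ratio of Slc25a33 to Slc25a36 in TPM was 0.74 ± 1.03 in COPD and 0.09 ± 0.33 in control (exact permutation test, p = 0.206, adjusted 0.310). Without COPD replicate 5, again the lowest COPD library, the difference in that ratio was 1.08 (exact permutation test, adjusted p 0.0238). Here too the library was set aside after the data were seen, and this p is not a separate test.

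**Figure D3:**
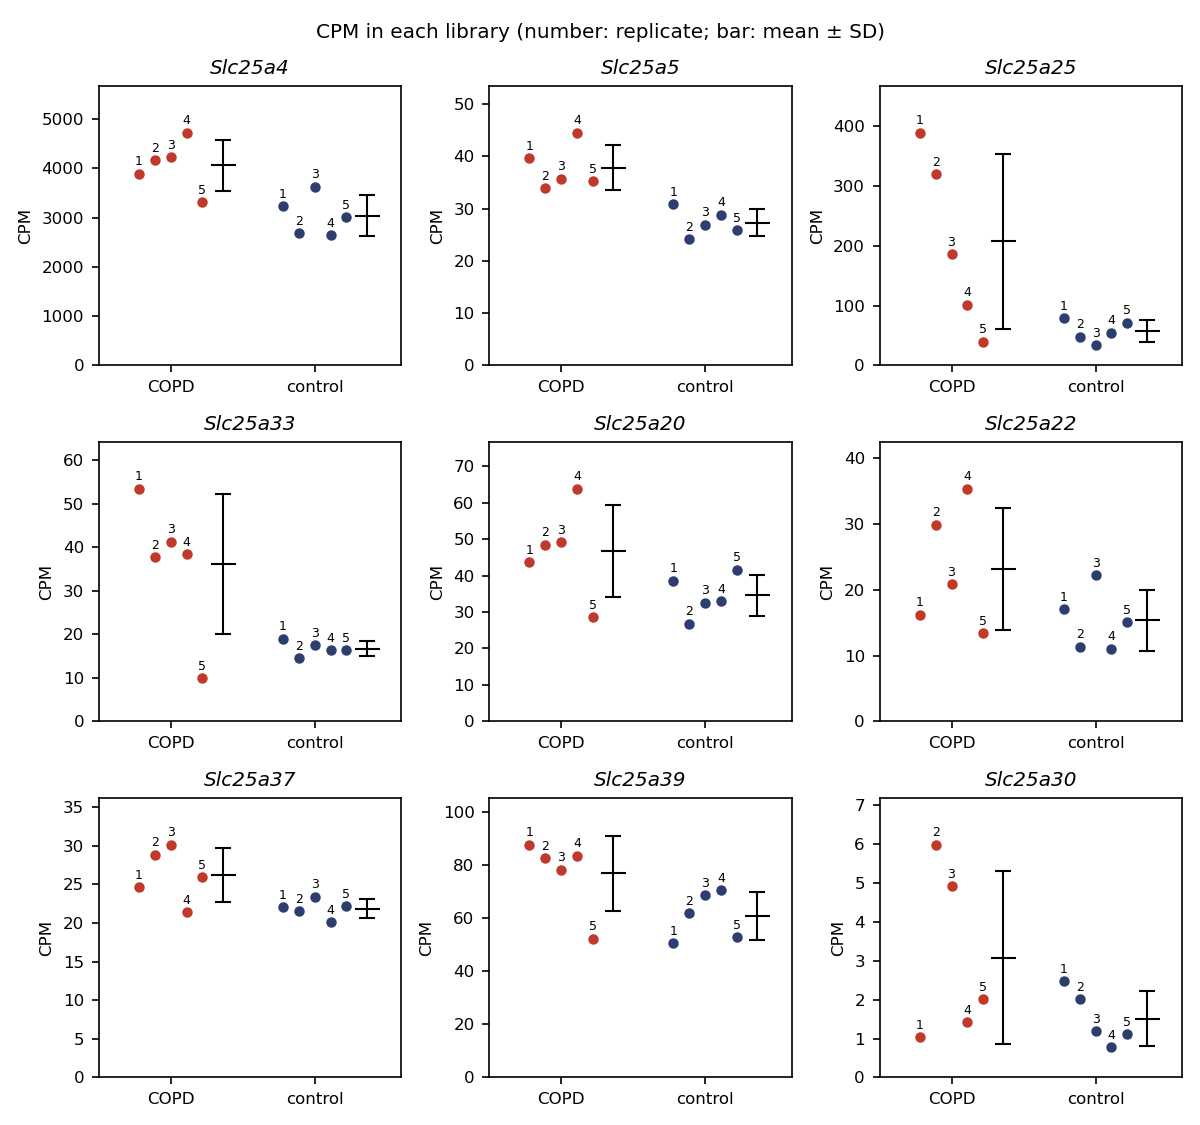
CPM of 9 SLC25 genes in each library, COPD (red) left of control (blue), with replicate numbers and the mean ± SD as a bar; axes start at 0. COPD replicate 5 sits within or below the control range in Slc25a4, Slc25a25, Slc25a33, Slc25a20, Slc25a22 and Slc25a39, and above it in Slc25a5.

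The other carriers of nucleotides, cofactors and vitamins had smaller fold changes. All 9 genes of the group were tested, 7 were above 0 and 2 below, and the median was 0.19 on the log2 scale. Slc25a26, which imports the methyl donor S-adenosylmethionine and is named here after its values were seen, had 20.9, 26.9, 22.7, 20.0 and 14.4 CPM in COPD and 16.8, 16.6, 18.8, 16.9 and 16.8 CPM in control. Its log2 fold change was 0.29 ± 0.14 (adjusted p 0.376 by edgeR), and 0.54 ± 0.12 among the 7 libraries with Y-linked counts (edgeR, adjusted p 0.0440). This gene overlaps Lrig1 on the opposite strand. The lowest fold change of the group belonged to Slc25a51, the NAD carrier, at -0.10 ± 0.09.

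**Figure D4:**
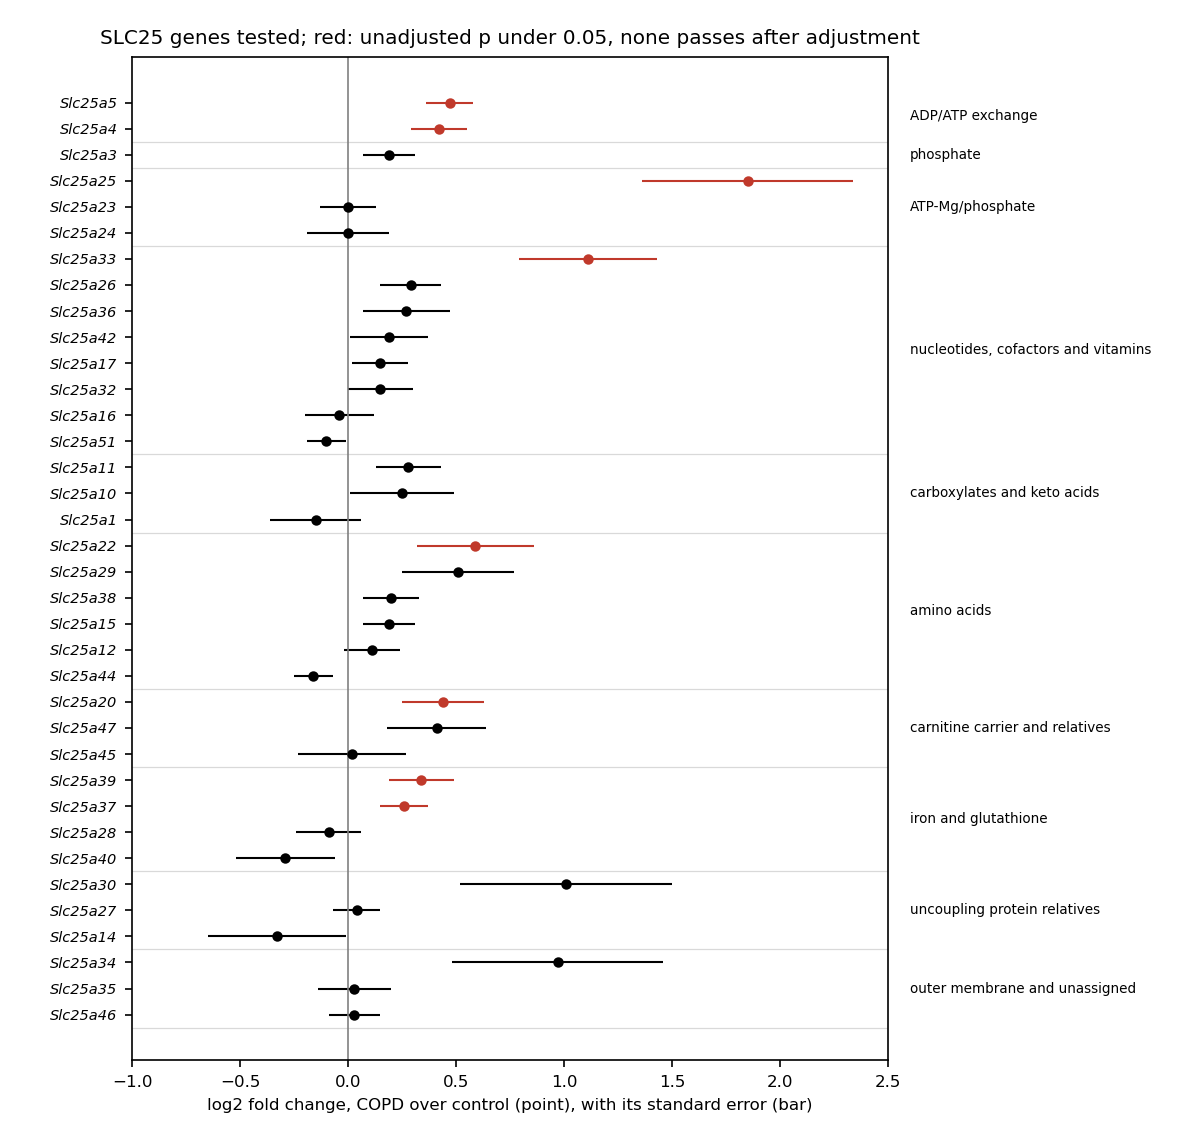
Log2 fold change of COPD over control for 36 of the 37 tested SLC25 genes, by substrate group, with the standard error as a bar. The 8 genes in red, from Slc25a37 at 0.26 to Slc25a25 at 1.85, had an unadjusted p under 0.05, and none passed after adjustment.

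Carboxylate carriers link the citrate cycle with the cytosol. Of 3 genes tested, of 4 in the table, 2 were above 0 and 1 below. Slc25a11, the oxoglutarate/malate carrier, had 314.6, 238, 247, 361 and 206 CPM in COPD and 226, 201, 239, 243 and 216.5 CPM in control. COPD replicates 1, 3 and 4 lay above every control and the groups overlapped, with a log2 fold change of 0.28 ± 0.15 (adjusted p 0.409 by edgeR). It was 0.16 without COPD replicate 4, 0.12 among the libraries with Y-linked counts, 0.13 with library size alone and 0.06 with limma on log2(TPM + 1). The gene overlaps Rnf167 on the opposite strand. Slc25a10, the dicarboxylate carrier, stood at 0.25 ± 0.24, and Slc25a1, the citrate carrier, at -0.15 ± 0.21. Slc25a21, the oxodicarboxylate carrier, averaged 0.028 TPM in COPD and 0.024 TPM in control and was not tested.

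Among the amino acid carriers 6 of 9 genes were tested, with 5 above 0 and 1 below. Slc25a12, the aspartate/glutamate carrier aralar, had 484, 417, 399, 583 and 363 CPM in COPD and 414.5, 380.0, 467.5, 418 and 406 CPM in control. The groups overlapped, with the highest and the lowest value both in COPD, and the log2 fold change was 0.11 ± 0.13 (adjusted p 0.760 by edgeR). That sign turned to -0.05 with library size alone, to -0.11 with limma on log2(TPM + 1) and to -0.02 among the libraries with Y-linked counts.

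Slc25a22, a glutamate carrier, had 16.3, 30.0, 20.9, 35.4 and 13.4 CPM in COPD and 17.04, 11.4, 22.2, 11.1 and 15.1 CPM in control. COPD replicates 2 and 4 lay above every control and the other COPD libraries within the control range, with a log2 fold change of 0.59 ± 0.27 (adjusted p 0.341 by edgeR). Slc25a44, a carrier of branched-chain amino acids, is named here after its values were seen. It had 34.5, 32.5, 34.6, 33.5 and 33.7 CPM in COPD and 35.1, 36.1, 34.8, 41.5 and 41.7 CPM in control. All 5 COPD libraries lay below all 5 controls, by a narrow gap, which held in the lower direction for this 1 member and for 1.55% of all genes tested. The log2 fold change was -0.16 ± 0.09, with an adjusted p of 0.418 by edgeR. The basic amino acid carrier Slc25a29 stood at 0.51 ± 0.26, the glycine carrier Slc25a38 at 0.20 ± 0.13 and the ornithine carrier Slc25a15 at 0.19 ± 0.12. Slc25a2, Slc25a13 and Slc25a18 averaged under 1 TPM and were not tested.

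The carnitine/acylcarnitine translocase Slc25a20 brings long-chain fatty acids, bound to carnitine, into the matrix for oxidation. It had 43.6, 48.4, 49.1, 63.8 and 28.5 CPM in COPD and 38.6, 26.8, 32.6, 33.1 and 41.6 CPM in control. COPD replicates 1 to 4 lay above every control, and COPD replicate 5 lay below all but 1 of them. The log2 fold change was 0.44 ± 0.19 (adjusted p 0.310 by edgeR), and 0.57 ± 0.15 without COPD replicate 5 (edgeR, adjusted p 0.0599). Of its sequence relatives, Slc25a47 stood at 0.41 ± 0.23 and Slc25a45 at 0.02 ± 0.25. Slc25a48 was listed at 0 in all 5 controls and averaged 0.014 TPM in COPD.

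The mitoferrins Slc25a37 and Slc25a28 import iron, and Slc25a39 and Slc25a40 import glutathione. The first of each had a higher mean in COPD and the other a lower one. Slc25a37 had 24.6, 28.8, 30.1, 21.4 and 26.0 CPM in COPD and 22.0, 21.5, 23.4, 20.1 and 22.2 CPM in control. Here COPD replicate 4, not replicate 5, was the one that overlapped the controls, and the log2 fold change was 0.26 ± 0.11 (adjusted p 0.287 by edgeR). Mitoferrin-1 is also a gene of red cell precursors. Summed red cell markers were 357 to 4069 TPM in COPD and 140.6 to 3023 TPM in control, so that the groups overlapped. The median log2 fold change of the 5 tested red cell markers was 0.15. The part of red cell content in the result was not tested.

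Slc25a39 had 87.8, 82.7, 78.4, 83.7 and 52.4 CPM in COPD and 50.6, 61.9, 68.7, 70.6 and 53.0 CPM in control. COPD replicates 1 to 4 lay above every control and COPD replicate 5 near the lowest control, with a log2 fold change of 0.34 ± 0.15 (adjusted p 0.323 by edgeR). The paralogs stood at -0.09 ± 0.15 for Slc25a28 and -0.29 ± 0.23 for Slc25a40. The log2 ratio of Slc25a39 to Slc25a40 in TPM was 5.71 ± 0.51 in COPD and 5.07 ± 0.61 in control (exact permutation test, p = 0.111, adjusted 0.310). For Slc25a37 to Slc25a28 it was -2.62 ± 0.23 in COPD and -2.91 ± 0.41 in control (exact permutation test, p = 0.198, adjusted 0.310). With 5 libraries against 5, the smallest p this test can give is 0.00794.

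Relatives of the uncoupling proteins were low in this muscle. Slc25a30, described first in kidney, had 1.03, 5.99, 4.93, 1.43 and 2.02 CPM in COPD and 2.48, 2.01, 1.197, 0.777 and 1.11 CPM in control. The high values were in COPD replicates 2 and 3, the COPD libraries with Y-linked counts, and the others lay within the control range. The log2 fold change was 1.01 ± 0.49 (adjusted p 0.361 by edgeR), 1.85 ± 0.37 among the 7 libraries with Y-linked counts (edgeR, adjusted p 0.0308) and 1.84 ± 0.38 with a term for these counts (edgeR, adjusted p 0.0352). Both fits that use Y-linked counts set only COPD replicates 2 and 3 against the controls. Slc25a27 had 20.0, 25.7, 27.7, 24.6 and 28.0 CPM in COPD and 23.8, 26.3, 23.4, 25.5 and 23.3 CPM in control. Its groups overlapped and its log2 fold change of 0.04 ± 0.11 turned to -0.11 with library size alone and to -0.22 with limma on log2(TPM + 1). Slc25a14, on chromosome X, stood at -0.33 ± 0.32, the lowest fold change of the 37 genes.

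Slc25a46 is a protein of the outer membrane that acts in mitochondrial dynamics. It had 38.0, 42.5, 37.1, 51.6 and 35.6 CPM in COPD and 35.8, 39.5, 38.5, 40.8 and 45.3 CPM in control. The groups overlapped, the log2 fold change was 0.03 ± 0.12 (adjusted p 0.921 by edgeR), and it turned to -0.12 with library size alone and to -0.16 with limma on log2(TPM + 1). Slc25a34, whose substrate is not settled, had 9.97, 9.39, 8.90, 27.6 and 2.57 CPM in COPD and 7.39, 3.08, 7.31, 8.21 and 3.81 CPM in control. COPD replicate 4 was the highest library, and the log2 fold change of 0.97 ± 0.49 (adjusted p 0.380 by edgeR) was 0.37 ± 0.39 without it. Slc25a35, which overlaps Rangrf on the opposite strand, stood at 0.03 ± 0.17. Slc25a43 and Slc25a53 averaged under 1 TPM and were not tested.

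The same library often decided whether groups overlapped. In 10 of the 37 genes the other 4 COPD libraries lay above all 5 controls while COPD replicate 5 did not. Among them were Slc25a4, Slc25a3, Slc25a25, Slc25a26, Slc25a33, Slc25a15, Slc25a20, Slc25a39 and Slc25a34. Over all genes tested, all COPD values lay above all control values in 1.29% with all libraries and in 4.80% with COPD replicate 5 set aside. With it set aside, this held for 11 of the 37 genes (29.7%). All values lay below for 1 of the 37, Slc25a44, against 4.18% of all genes tested. In the edgeR fit without COPD replicate 5, 3 members passed the adjusted threshold as higher, Slc25a5, Slc25a25 and Slc25a33 (8.11%, against 2.06% of all genes). None passed as lower, against 1.15%. Without adjustment 17 had a p under 0.05 with higher values (45.9%, against 10.7%). Without COPD replicate 2 no gene of the table passed in edgeR, and 5 of 38 members had an unadjusted p under 0.05 with higher values (13.2%, against 6.74%).

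**Figure D5:**
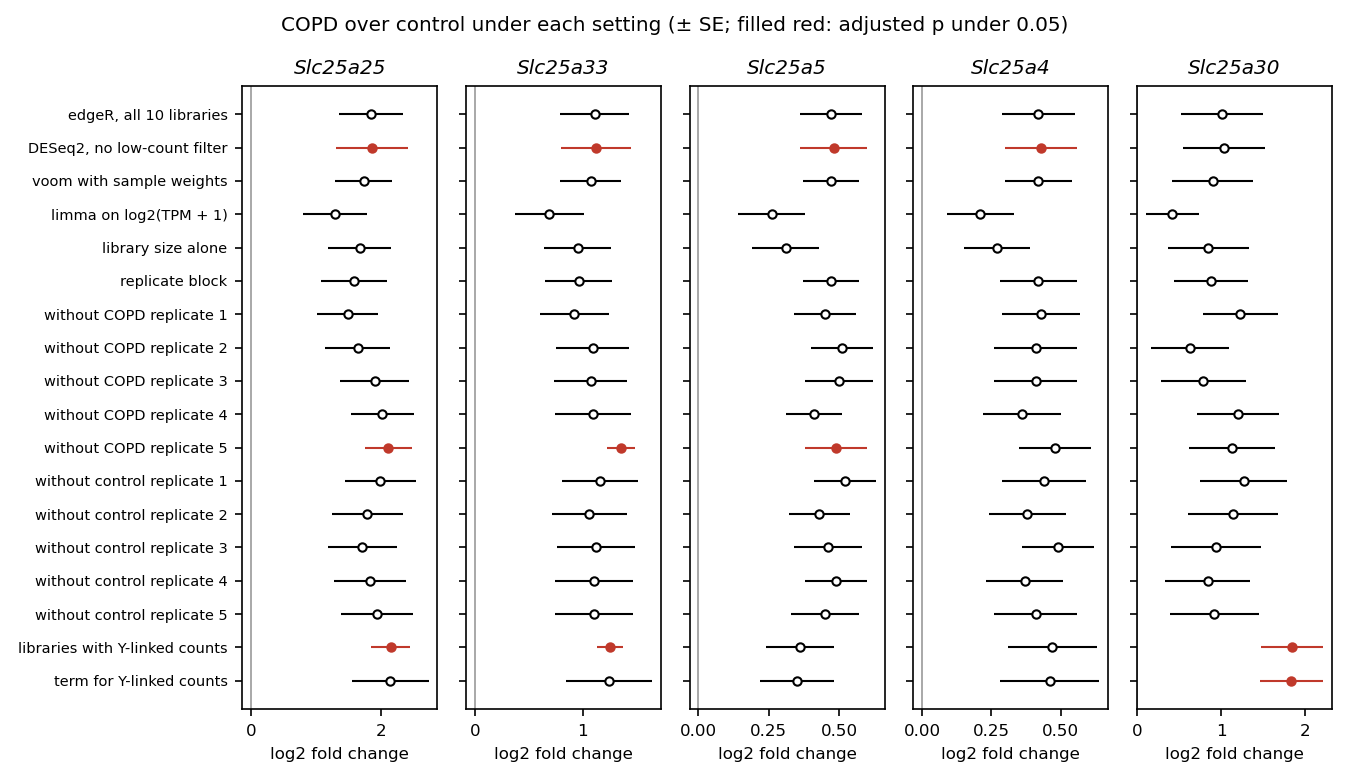
Log2 fold change ± SE of 5 SLC25 genes under each setting, filled red where the adjusted p was under 0.05. Slc25a25 and Slc25a33 pass with DESeq2, without COPD replicate 5 and among libraries with Y-linked counts, a set that also leaves out COPD replicate 5. With a term for Y-linked counts they do not pass (edgeR, adjusted p 0.0949 and 0.144). All controls hold such counts, so that fit also sets only COPD replicates 2 and 3 against the controls. Slc25a30 passes in the fits that use Y-linked counts. None of the 5 passes in the edgeR fit of COPD against control with all 10 libraries and no further term.

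Among the 7 libraries with Y-linked counts, 2 COPD and 5 control, 4 of 38 members passed as higher in edgeR (10.5%, against 2.55% of all genes), namely Slc25a25, Slc25a26, Slc25a30 and Slc25a33, and 0 as lower, against 1.15%. These 7 libraries leave out COPD replicates 1, 4 and 5. With all libraries and a term for Y-linked counts, 1 of 37 members passed, Slc25a30 (2.7%, against 1.30% of all genes), and 0 as lower, against 0.402%. All controls hold Y-linked counts, so in that fit the fold change again rests on COPD replicates 2 and 3. The other COPD libraries bear on the estimate of spread, not on the difference. It is therefore not a separate result from the fit on the 7 libraries. Over 23 alternatives to the edgeR fit, the adjusted p ran from 0.00649 to 0.283 for Slc25a25, from 0.000534 to 0.291 for Slc25a33, and from 0.00452 to 0.228 for Slc25a5. It ran from 0.0355 to 0.424 for Slc25a4, from 0.0308 to 0.644 for Slc25a30 and from 0.0440 to 0.859 for Slc25a26.

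Genes that work beside the SLC25 carriers were taken from 4 lists, and none of them passed in edgeR with all libraries. Of 4 tested carriers of the same family with other symbols, 2 had an unadjusted p under 0.05 with higher values in COPD (against 7.94% of all genes tested). Ucp3, the muscle uncoupling protein, had 284, 592, 461, 587 and 80.3 CPM in COPD and 101, 92.2, 230.7, 23.5 and 134 CPM in control. COPD replicates 1 to 4 again lay above every control and COPD replicate 5 did not, with a log2 fold change of 1.79 ± 0.57 (adjusted p 0.189 by edgeR). Without COPD replicate 5 it was 2.05 (edgeR, adjusted p 0.0443). Mtch1, an outer membrane relative of the carriers, had 79.2 to 109.6 CPM in COPD and 64.8 to 77.3 CPM in control. Such a lack of overlap held in the higher direction for 1.29% of all genes tested. The log2 fold change of Mtch1 was 0.40 ± 0.11 (adjusted p 0.135 by edgeR and 0.0179 by DESeq2, which called 2.04% of all genes higher). Ucp2 stood at 0.48 ± 0.27.

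The pyruvate carrier subunits and the VDAC channels of the outer membrane gave 5 tested genes, with 5 above 0 and a median of 0.13. Mpc2 stood at 0.35 ± 0.14 (adjusted p 0.269 by edgeR), and at 0.45 without COPD replicate 5 (edgeR, adjusted p 0.0380). Vdac2 stood at 0.23 ± 0.11, and Mpc1 and Vdac1 at 0.13 ± 0.12 each, of which both turned below 0 with library size alone (-0.03 and -0.01).

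Of 16 genes of the pathway that imports carrier proteins, 3 had an unadjusted p under 0.05 with higher values in COPD (against 7.94% of all genes tested) and 1 with lower values (against 6.64%), with a median of 0.07. The higher ones were Timm10, a chaperone of the intermembrane space, at 0.39 ± 0.15, and Timm22 and Timm29, subunits of the carrier translocase, at 0.31 ± 0.13 and 0.28 ± 0.12. The lower one was Tomm70a, named here after its values were seen, at -0.22 ± 0.10. Of 14 partner enzymes of the shuttles, 3 were higher and 1 lower by the same measure and beside the same shares of all genes, with a median of 0.14. Among them, mitochondrial malate dehydrogenase Mdh2 stood at 0.35 ± 0.13, mitochondrial creatine kinase Ckmt2, which uses ATP exported by the translocase, at 0.56 ± 0.22, and ATP citrate lyase Acly at -0.36 ± 0.14. All of these genes had adjusted p-values above 0.05 in edgeR.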

How the data were processed

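Polyadenylated RNA of 10 gastrocnemius samples (5 COPD, 5 control) had been sequenced. The authors deposited 1 table of expected counts per gene and 1 of TPM (transcript levels scaled by length and depth). HISAT2 2.0.4, Bowtie2 2.2.5, RSEM 1.2.12, DESeq2 1.4.5 and the mouse build mm9 are listed per the submitters' processing notes; the annotation and the use of strand are not given in the sources used here. Of the expected counts, 30.7% were not whole. They were rounded, filtered with filterByExpr, scaled by TMM and tested with edgeR 4.0.16 in R 4.3.3 (quasi-likelihood, COPD over control, adjusted over 12697 genes by Benjamini-Hochberg, threshold 0.05). The procedure was tested on simulated data. Totals were 14085854 to 17251034. Counting error alone gives a log2 SD of 0.006 for Slc25a4 and 0.323 in COPD and 0.261 in control for Slc25a14, and exceeded 0.5 of the observed SD in at least 1 group for 18 of the 37 tested genes. Counts differed by more than sampling noise in all 45 pairs of libraries (chi-square per degree of freedom 16.9 to 115).

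Members and lists were chosen with earlier results of these data known. Values per library are given for members past the threshold, for the member with the smallest p and the one with the highest mean TPM of each substrate group, and for Slc25a3, Slc25a4, Slc25a5, Slc25a12 and Slc25a20. Other listed genes are the 3 of each list with the smallest p and Ucp2, Ucp3, Mpc1, Mpc2 and Vdac1. Tomm70a was named outside this rule. Ratios of paralogs used log2(TPM + 0.1) and a two-sided exact permutation test of 252 relabelings. Of 8 pairs considered, 6 had a mean of at least 1 TPM in each gene. Motifs were searched in RefSeq promoters on GRCm38.p6, found for 35 of the 46 genes. Alternatives were DESeq2 1.42.0, voom and limma 3.58.1, other scalings and filters, a replicate block, each library left out, and Y-linked counts. Figures used matplotlib 3.10.9 in Python 3.11.15. The values of 1 member are not reported here, though it stays in the counts and sums.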

Additional observations from a re-analysis of the deposited data

Results flagged for a closer look

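Of 44 groups of 5 values examined among the named genes and ratios, 2 held a value far from the other 4 of its group, where chance gives about 1 in 20 such groups. Slc25a39, a glutathione importer, was 52.35 CPM in COPD replicate 5, and the next lowest COPD library stood at 78.4 CPM. The log2 ratio of Slc25a23 to Slc25a24 was 3.49 in COPD replicate 1, with the next highest COPD library at 2.43.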

How the results depend on the processing

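Of 28 genes named by the rule above, 22 kept the sign of their fold change in every alternative, among them 11 of 15 SLC25 genes. Slc25a3 turned to -0.03 in the limma fits on TPM. Slc25a12 was -0.05 with library size alone, -0.11 to -0.12 in the limma fits, -0.02 among libraries with Y-linked counts and -0.03 with a term for them. Slc25a27 was -0.11 with library size alone and -0.22 to -0.24 in the limma fits. Slc25a46 was -0.12, -0.16 to -0.17 and, with the term, -0.01, and ran from -0.06 to 0.08 with single libraries left out. Mpc1 was -0.03 and -0.07, and Vdac1 -0.01 and -0.06, in the same fits. The difference for Slc25a23/Slc25a24 was -0.03 with a pseudocount of 1, -0.22 among libraries with Y-linked counts and -0.20 to 0.09 with single libraries left out. The difference for Slc25a4/Slc25a5 was 0.12 among libraries with Y-linked counts and -0.12 to 0.02 with single libraries left out. The causes were not tested. The edgeR fit called 8 genes in all. DESeq2 called 420, no filter 17, limma 67 with a pseudocount of 1, 65 with 0.1 and 2 unfiltered, voom 137, the Y-linked libraries 488, the Y-linked term 216 and fits without 1 library 0 (COPD replicate 2) to 410 (COPD replicate 5). Called SLC25 genes numbered 0 with edgeR, 4 with DESeq2, 4 among Y-linked libraries, 1 with the term and 0 to 3 with single libraries left out. The listed neighbours gave 0, 1 with DESeq2 and 0 to 2 with single libraries left out, and of the 6 pairs 0 passed, or 0 to 2 with single libraries left out. Without COPD replicate 5, chosen after seeing the data, genes with groups that do not overlap were 11 higher in place of 1, and 1 lower in both. Replicate numbers did not pair the libraries (correlations -0.14 to 0.041), and a replicate block gave 7 called genes and 0 SLC25 genes. Depth left 9 SLC25 genes under 1 TPM untested and limits low tested ones such as Slc25a45, whose counting error alone gives a log2 SD of 0.257 in COPD and 0.238 in control, where 0.484 in COPD and 0.293 in control were observed.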

Other observations

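Promoters of the SLC25 genes were searched for 4 motifs, in 250 bases before 45 annotated starts of 35 genes. The E-box CACGTG occurred in 8 of these promoters, belonging to Slc25a1, Slc25a13, Slc25a14, Slc25a15, Slc25a31, Slc25a33 and Slc25a36, against 6.02% of 32851 mouse promoters. The NRF1 motif occurred in 2, those of Slc25a3 and Slc25a31, against 3.74%. The half-site AAGGTCA, bound by oestrogen-related receptors, occurred in 1, that of Slc25a34, against 4.08%. Each was searched on both strands, and a match is a description of letters only.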
